A study of Mus musculus with 9 samples.

Results

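The genes described here are the 10 main members of the AP-1 (activator protein 1) family of transcription factors: Fos, Fosb, Fosl1, Fosl2, Jun, Junb, Jund, Batf, Batf3 and Atf3. They were taken from the array table as the probe sets annotated to 1 of these symbols and to no other gene, which gave 14 of 34945 single-gene probe sets, and 10 of 18193 genes. Each gene is represented by its brightest probe set, the one with the highest mean over all 9 arrays, and the second probe set of Fosl1, Fosl2, Jun and Jund is given beside it.

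The samples were T lymphocytes of C57BL/6 mice in 3 groups of 3 arrays. The allogeneic group was cultured for 24 h with dendritic cells of BALB/c mice, at 20 T cells per dendritic cell. The anti-CD3/CD28 group was stimulated for 24 h by anti-CD3e plus anti-CD28 (0.1 µg/ml), antibodies that engage the antigen receptor complex and its CD28 co-receptor in place of an antigen-presenting cell, and the labels name no dendritic cells for it. The syngeneic group was cultured for 24 h with C57BL/6 dendritic cells at the same ratio of 20. After culture, all cells passed over magnetic beads meant to leave T cells, and were then crosslinked with ultraviolet light. Argonaute (AGO), the protein that holds microRNAs and the transcripts paired with them, was immunoprecipitated, and 1 expression array per sample was hybridised with the amplified co-precipitated RNA. The labels number the arrays as biological replicates 1 to 3 within each group and name no animals or cultures, so p-values measure the spread between these arrays. Every value below is a log2 signal of AGO-bound RNA or a difference of such signals. Arrays of input RNA were not analysed here, so the amount of a transcript and its binding to AGO cannot be told apart, nor can fewer cells of a type and less RNA per cell.

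AP-1 is a dimer of basic leucine zipper proteins. Jun proteins pair with each other or with Fos proteins, and the dimers bind a short palindrome in promoters and enhancers. T cell receptor signals act through MAP kinases and calcium: the kinases raise and phosphorylate Fos and Jun proteins, which then bind the Il2 promoter and other cytokine genes together with NFAT. Fos, Fosb, Jun, Junb and Atf3 are immediate early genes, whose transcripts are short-lived. Batf and Batf3 lack the activation domains of Fos and pair with Jun proteins, and with IRF4 or IRF8 on DNA. In mice, Batf is needed for Th17 cells and Batf3 for the cross-presenting dendritic cells of lymphoid tissue.

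Promoter sequences are shown for Fos, Jun and Fosl2, picked after their values were seen because their mean signals were more than 1 (log2) lower after anti-CD3/CD28 than after syngeneic culture. Each line holds the 250 bases before the RefSeq start of the gene, 5′ to 3′ on the strand of the gene (RefSeq, GRCm38.p6), and capitals mark matches to the motifs named after them. The Fos promoter lies at chr12:85473640-85473889 on the plus strand, the Jun promoter at chr4:95052223-95052472 on the minus strand and the Fosl2 promoter at chr5:32136222-32136471 on the plus strand.
Fos: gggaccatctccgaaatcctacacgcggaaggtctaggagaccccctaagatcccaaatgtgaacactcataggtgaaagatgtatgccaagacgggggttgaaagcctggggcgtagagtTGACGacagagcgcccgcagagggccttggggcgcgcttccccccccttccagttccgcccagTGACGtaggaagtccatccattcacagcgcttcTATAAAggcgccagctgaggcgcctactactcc
Jun: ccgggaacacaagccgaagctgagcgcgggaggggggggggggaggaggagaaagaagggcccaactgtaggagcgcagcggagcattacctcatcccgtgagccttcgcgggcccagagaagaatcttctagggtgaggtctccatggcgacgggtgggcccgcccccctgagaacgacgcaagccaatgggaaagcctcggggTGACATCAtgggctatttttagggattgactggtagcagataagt
Fosl2: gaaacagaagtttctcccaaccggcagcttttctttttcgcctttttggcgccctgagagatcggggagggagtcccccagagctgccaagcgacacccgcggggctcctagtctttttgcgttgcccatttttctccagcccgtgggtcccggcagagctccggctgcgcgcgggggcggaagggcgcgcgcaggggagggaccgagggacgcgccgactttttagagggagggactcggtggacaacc

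In the Fos sequence, TGACG, the half-site of the cAMP response element, began 129 and 66 bases before the start, and TATAAA began 33 bases before it. In the Jun sequence TGACATCA, a variant of the AP-1 site, began 45 bases before the start. The Fosl2 sequence held none of the motifs searched. The table had promoters for 9 of the 10 members, all but Fosl1. Of these 9, 5 held TGACG (Fos, Fosb, Junb, Batf and Atf3), against 17.8% of the 32851 promoters in the table, and 1 held TGACATCA, against 2.93%. TATAAA, searched on the gene's own strand only, was in 1 of the 9 and in 7.59% of all promoters. The AP-1 site TGACTCA was in 0 of the 9 and in 4.46% of all, the full cAMP response element TGACGTCA (which contains TGACG) in 0 and 1.55%, and the CArG box of serum response factor in 0 and 1.47%. All motifs but TATAAA were searched on both strands, and a match describes letters in this window, not binding.

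Markers of T cells were present: all 13 measured genes of the 16 listed, among them Cd3d, Cd3e, Cd3g, Cd4 and Cd8a, lay above the median of each array. Over all genes, replicate number set the arrays apart more than culture did. Number accounted for a median of 92.7% of the variance of a gene over the 9 arrays and culture for 2.08%, while for the 10 members the medians were 72.1% and 13.6%. The scale of the arrays also followed number. Array medians were 4.58 to 4.59 in number 1, 5.60 to 5.67 in number 2 and 4.81 to 4.93 in number 3. Upper quartiles were 5.69 to 5.76, 7.03 to 7.13 and 7.59 to 7.78 in the same order. The share of number includes this difference of scale, and its part was not tested. The members ran from 5.12% to 89.2% for number, and for 3 of them culture took the larger share: Fosl2 (65.0% culture, 5.12% number), Jund (43.1% and 31.8%) and Jun (38.7% and 33.9%). Between arrays of 1 number, 20.9% to 51.3% of all probe sets had exactly equal values, which is a property of the deposited table. For the members, 19 of 90 such comparisons were exactly equal: 13 of 30 in number 1, 6 of 30 in number 2 and 0 of 30 in number 3. Such ties are not taken as measurements of equal levels. In number 1, allogeneic and antibody arrays hardly differed, with an SD of 0.103 over the differences of all genes, against 0.493 in number 2 and 0.680 in number 3. The range over the 3 cultures had a median of 0.0937 over members in number 1, 0.383 in number 2 and 1.85 in number 3, and it exceeded 1 for 1, 2 and 7 of the 10 members. These ranges are also read on array scales that differed between numbers.

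**Figure D1:**
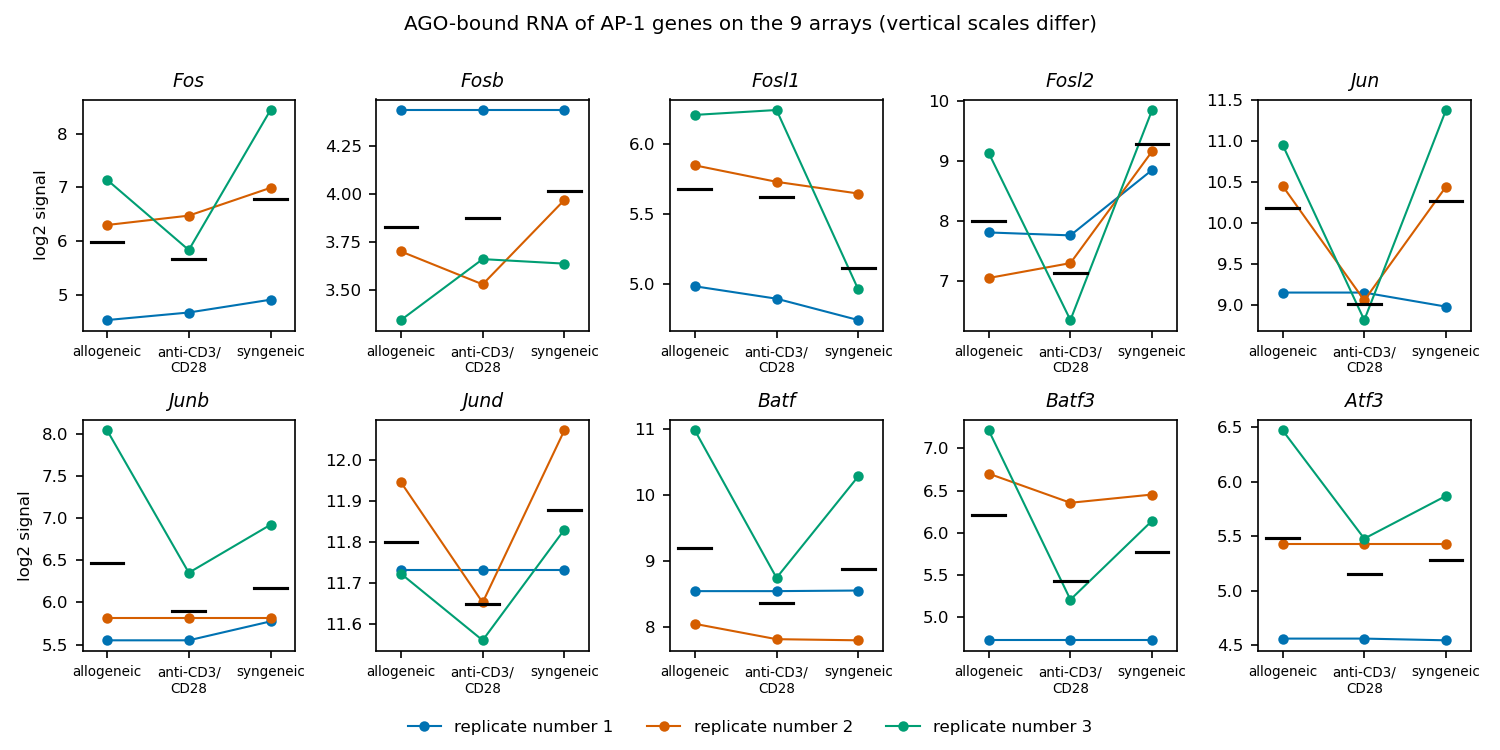
Log2 signal of the 10 AP-1 genes (vertical axes, each with its own scale) in allogeneic, anti-CD3/CD28 and syngeneic cultures. Points are single arrays, coloured lines join arrays of 1 replicate number, and black bars are means of 3 arrays. Fosl2 is highest in syngeneic culture in every number, Jun is lowest after anti-CD3/CD28 in numbers 2 and 3, and most other members differ between cultures mainly in number 3.

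Across the whole table, limma's moderated test with Benjamini-Hochberg adjustment called 0 of 18193 genes (0%) at an adjusted p under 0.05 in any of the 3 comparisons, so 0 of the 10 members passed in either direction, and each member had adjusted p = 1. With replicate number as a fixed block 0 genes passed as well. At an unadjusted p under 0.05 in the fit without the block, 6 genes (0.033%) were higher in allogeneic than in syngeneic culture. Another 21 (0.115%) were lower, with 0 members among either. Between anti-CD3/CD28 and syngeneic culture 15 genes (0.0824%) were higher, with 0 members, and 141 (0.775%) lower, with 1 member, Fosl2. Between allogeneic and anti-CD3/CD28 culture 23 genes (0.126%) were higher and 1 (0.0055%) lower, with 0 members. With the fixed block, the counts of the 18193 genes were 423 higher and 402 lower between allogeneic and syngeneic culture, with 0 members. They were 406 higher and 830 lower between anti-CD3/CD28 and syngeneic culture, with 2 members, Fosl2 and Jund, both lower. Between allogeneic and anti-CD3/CD28 culture they were 144 higher and 61 lower, with 0 members. The member values below are therefore descriptions of 9 arrays, and none is a called change. The 3 comparisons share arrays, so their values are not independent of each other.

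Among Fos proteins, Fosl2 (Fra-2) gave the widest separation of cultures. Its signal was 7.76, 7.29 and 6.34 on anti-CD3/CD28 arrays 1, 2 and 3, against 8.85, 9.16 and 9.85 on syngeneic arrays. Every antibody array lay below every syngeneic array. The difference was −2.15 ± 0.67 (SE; 95% interval −3.61 to −0.69; limma, unadjusted p = 0.00721, adjusted p = 1), which is a ratio of 0.225. The lower signal held within each number, at −1.09, −1.87 and −3.51. Fosl2 was the 1 member without overlap in that direction, where 1.52% of all genes had none, and Fos and Fosl2 were the 2 members lower in all 3 numbers, as were 9.15% of all genes. These 2 were also the members lower in all 3 numbers after allogeneic culture, as were 7.96% of all genes, and 0 members lacked overlap between allogeneic and syngeneic culture, where 0.192% of all genes were higher and 0.451% lower without overlap.

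In the allogeneic cultures Fosl2 stood at 7.81, 7.05 and 9.13, so that numbers 1 and 2 matched the antibody arrays to within 0.25 and number 3 lay closer to its syngeneic array. It differed from syngeneic culture by −1.29 ± 0.67 (−1.04, −2.11 and −0.72 within the numbers; 95% interval −2.75 to 0.17; unadjusted p = 0.0783, adjusted p = 1), and the groups overlapped. From the antibody cultures it differed by 0.86 ± 0.67, with 0.05, −0.25 and 2.79 within the numbers. This last difference was −0.10 without the arrays numbered 3. The dimmer probe set of Fosl2 was tied in numbers 1 and 2. It read 4.68 on all 3 arrays of number 1 and 5.64 on all 3 of number 2. In number 3 it read 7.09, 5.84 and 6.09 on the allogeneic, anti-CD3/CD28 and syngeneic arrays, so that the antibody array was the lowest there and the allogeneic array the highest. With the mean of both probe sets the antibody difference was −1.12 (unadjusted p = 0.0916).

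Macrophage and monocyte markers were highest in the syngeneic cultures. All 14 measured ones had a lower mean after anti-CD3/CD28 and all 14 after allogeneic culture than after syngeneic culture. Over all genes, 47.2% and 41.7% had a lower mean in these comparisons. Of the 14 markers, 8 were lower in all 3 numbers after allogeneic culture and 8 after anti-CD3/CD28, against 7.96% and 9.15% of all genes. Their summed linear signal ran from 931 to 1789 on allogeneic arrays, from 429 to 1149 on anti-CD3/CD28 arrays and from 6752 to 9505 on syngeneic arrays, with C1qa at or under the array median throughout. Ms4a7 was at or under it on 8 arrays, and C1qc and Cd14 on 7. Lyz1 and Lyz2 were the brightest markers on the syngeneic arrays and weighed most in the sums there. The part of the 14 markers in the Fosl2 values was not tested.

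Fos, the founding partner of Jun, was 4.67, 6.47 and 5.83 after anti-CD3/CD28, against 4.91, 6.99 and 8.44 after syngeneic culture. The antibody array was the lower of the pair in each number, by 0.24, 0.52 and 2.61, while the spread between numbers made the groups overlap. The mean difference was −1.12 ± 0.95 (95% interval −3.17 to 0.93; unadjusted p = 0.257). After allogeneic culture Fos was 4.53, 6.30 and 7.14, which differed from syngeneic culture by −0.79 ± 0.95, and by −0.38, −0.69 and −1.30 within the numbers. These 6 pairs share 3 syngeneic arrays and are not independent. Fos stood below its syngeneic partner in all of them, and the largest of these gaps was that of the anti-CD3/CD28 array numbered 3. In number 1 its signals were close to the array medians of 4.58 to 4.59, and the allogeneic one lay under its median. The antibody difference was −0.38 when all arrays numbered 3 were left out.

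Fosl1 (Fra-1), a Fos protein without the strong activation domain of Fos, ran the other way. It read 4.99, 5.85 and 6.21 after allogeneic culture and 4.90, 5.73 and 6.24 after anti-CD3/CD28, against 4.75, 5.65 and 4.96 after syngeneic culture. Both stimulated cultures lay above the syngeneic partner in all 3 numbers, by 0.24, 0.20 and 1.25 for allogeneic and by 0.15, 0.08 and 1.28 for antibody culture. The mean differences were 0.56 ± 0.62 and 0.51 ± 0.62 (unadjusted p = 0.378 and 0.427, adjusted p = 1 for both). With the fixed block the SE was 0.27 and the limma p was 0.0843 and 0.112 unadjusted, 0.709 and 0.729 adjusted. Fosl1 was the 1 member higher in all 3 numbers, against 7.29% of all genes for allogeneic and 7.8% for antibody culture. Its other probe set shared the direction in all 6 pairs, which again share 3 syngeneic arrays. It read 4.34, 5.64 and 5.71 after allogeneic culture and 4.44, 5.67 and 5.45 after anti-CD3/CD28, against 4.18, 5.58 and 4.01 in syngeneic culture. That set lay under the array median on every array of number 1, on the allogeneic and syngeneic arrays of number 2 and on the syngeneic array of number 3. The brightest set lay just above the medians of the syngeneic arrays, which were 4.59, 5.60 and 4.87. Allogeneic and antibody cultures differed by 0.06 ± 0.62 (95% interval −1.28 to 1.39).

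Fosb, the remaining Fos protein, lay under the median of the array on all 9 arrays, between 3.34 and 4.44. It was exactly equal in the 3 cultures of number 1, and no difference between cultures exceeded 0.44 within a number. It was the only member under the 40th percentile of mean signal over all genes.

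Jun, the central Jun protein and the partner of Fos in the classical AP-1 dimer, was 9.15, 9.06 and 8.82 after anti-CD3/CD28, against 8.98, 10.45 and 11.38 after syngeneic culture. The antibody arrays were nearly level and the syngeneic arrays were higher in numbers 2 and 3, so the gap was 0.17, −1.39 and −2.56 within the numbers. The mean difference was −1.26 ± 0.63 (95% interval −2.63 to 0.11; unadjusted p = 0.0685, adjusted p = 1), a ratio of 0.417. The allogeneic arrays read 9.15, 10.46 and 10.96 and followed the syngeneic ones, with a difference of −0.08 ± 0.63 and an interval of −1.45 to 1.29. From anti-CD3/CD28 the allogeneic arrays differed by 1.18 ± 0.63 (0.00, 1.40 and 2.14 within the numbers; unadjusted p = 0.0858, adjusted p = 1).

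The second probe set of Jun gave the same order of cultures in numbers 2 and 3. It read 7.20, 9.60 and 9.90 after allogeneic culture, 7.44, 7.99 and 7.09 in antibody culture, and 7.47, 9.41 and 10.28 in syngeneic culture. Its antibody values in numbers 2 and 3 were lower than both co-cultures, as with the brightest set. The zero between allogeneic and antibody arrays of number 1 is an exact tie of the brightest set. Without the arrays numbered 1, where the antibody array was the higher, the antibody difference of the brightest set from syngeneic culture was −1.98. Without the arrays numbered 3 it was −0.61.

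Jund, the Jun protein made steadily in resting cells, varied least of the well-detected members, between 11.56 and 12.07 on all 9 arrays. It was 11.73, 11.65 and 11.56 after anti-CD3/CD28, against 11.73, 12.07 and 11.83 after syngeneic culture. The difference was −0.23 ± 0.26 (95% interval −0.80 to 0.34). The allogeneic arrays read 11.73, 11.95 and 11.72 and differed from syngeneic culture by −0.08 ± 0.26 (95% interval −0.65 to 0.49). With the block the antibody difference had an unadjusted p = 0.0498 and adjusted p = 0.729. Its other probe set read 5.23 on every array of number 1, 5.95 on every array of number 3, and 7.01, 6.80 and 6.61 for allogeneic, anti-CD3/CD28 and syngeneic arrays of number 2, without the lower antibody value.

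Junb, a Jun protein that can restrain Jun and that pairs with BATF in T cells, was 5.55, 5.81 and 8.04 after allogeneic culture, 5.55, 5.81 and 6.35 after anti-CD3/CD28, and 5.78, 5.81 and 6.92 after syngeneic culture. All 3 arrays of number 2 were exactly equal, the cultures of number 1 spanned 0.224, and those of number 3 spanned 1.69. Allogeneic minus syngeneic was 0.30 ± 0.74, antibody minus syngeneic −0.26 ± 0.74 and allogeneic minus antibody 0.56 ± 0.74, each with adjusted p = 1.

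**Figure D2:**
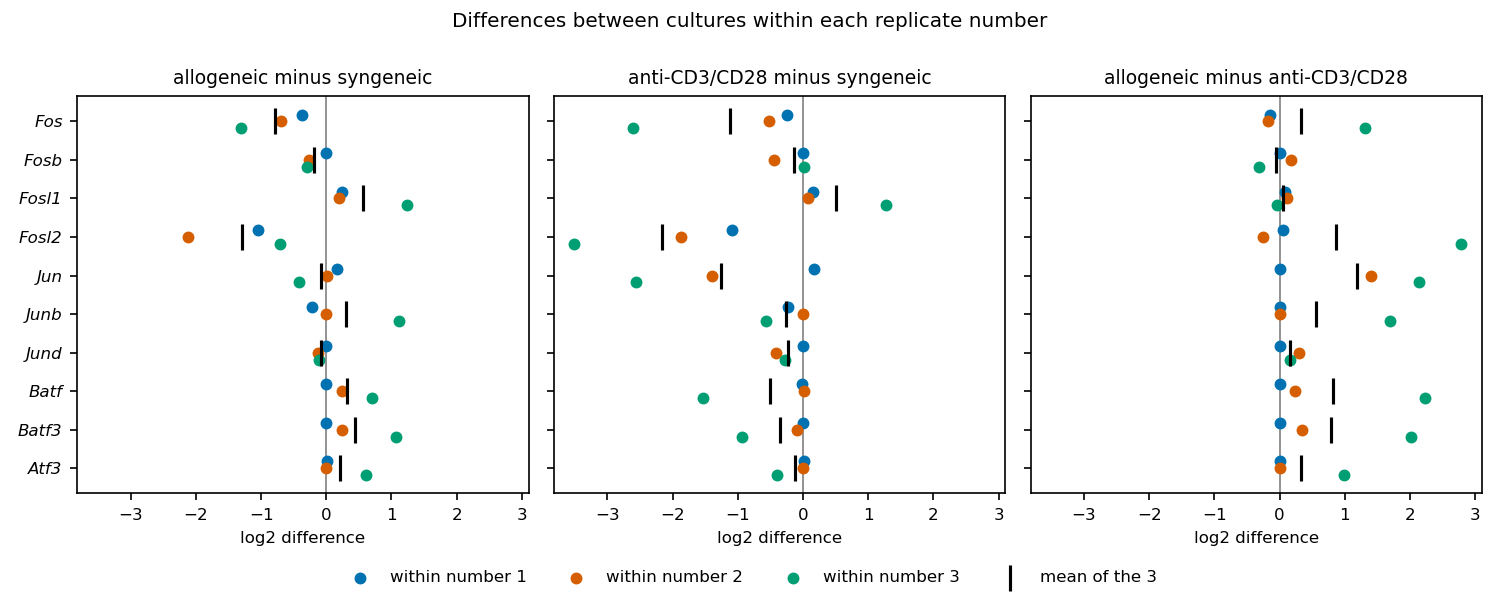
Log2 differences of the 10 members (rows) in the 3 comparisons (panels). Coloured points are the differences within replicate numbers 1, 2 and 3, and black bars are their means. The points of number 1 lie within 0.38 of 0 except those of Fosl2 against syngeneic culture, and most of the widest differences are those of number 3.

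**Figure D3:**
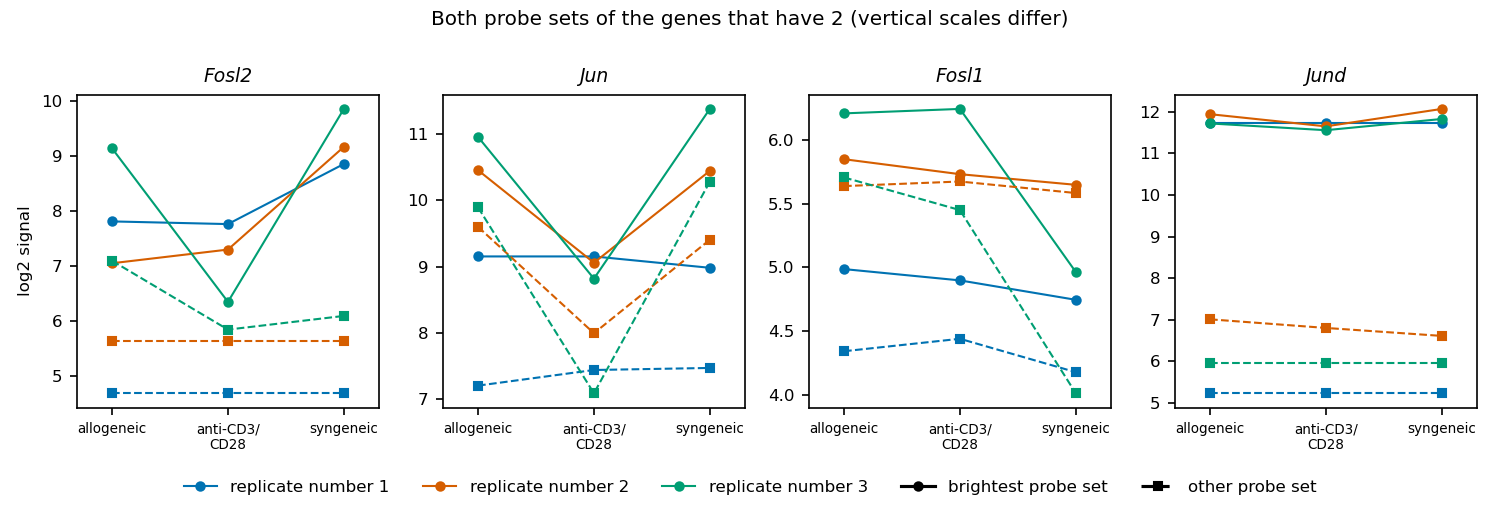
Log2 signal of both probe sets of Fosl2, Jun, Fosl1 and Jund in the 3 cultures, with circles and solid lines for the brightest set, squares and dashed lines for the other, and lines joining arrays of 1 replicate number. The 2 sets run alike for Jun and Fosl1, while the dimmer set of Fosl2 is tied in numbers 1 and 2 and lowest after anti-CD3/CD28 in number 3, and that of Jund differs between cultures in number 2 alone, where its antibody value lies above the syngeneic one.

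Batf and Batf3 behaved alike in number 3. Batf was 8.55, 8.05 and 10.98 after allogeneic culture, against 8.55, 7.82 and 8.75 after anti-CD3/CD28, and 8.56, 7.80 and 10.28 after syngeneic culture. Numbers 1 and 2 spanned at most 0.25 between cultures, whereas in number 3 the antibody array lay 2.23 below the allogeneic and 1.54 below the syngeneic array. The mean allogeneic minus antibody difference was 0.82 ± 0.82 (95% interval −0.95 to 2.59; unadjusted p = 0.334).

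Batf3 was 4.72, 6.70 and 7.22 after allogeneic culture, against 4.72, 6.35 and 5.20 after anti-CD3/CD28, and 4.72, 6.45 and 6.14 after syngeneic culture. Number 1 was an exact tie, and in number 3 the allogeneic array lay 2.01 above the antibody and 1.08 above the syngeneic array. The allogeneic minus antibody difference was 0.79 ± 0.79 (95% interval −0.93 to 2.50; unadjusted p = 0.338), and allogeneic minus syngeneic 0.44 ± 0.79.

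Atf3, a stress-induced partner of Jun proteins that can repress as well as activate, was no brighter than the median probe set on 6 arrays of the 9. It read 4.56, 5.43 and 6.47 after allogeneic culture, 4.56, 5.43 and 5.48 after anti-CD3/CD28, and 4.55, 5.43 and 5.87 after syngeneic culture. The 3 arrays of number 2 were equal and those of number 1 spanned 0.0158, so that number 3 alone carried the mean differences of 0.33 ± 0.66 (allogeneic minus antibody) and 0.21 ± 0.66 (allogeneic minus syngeneic).

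Taken over the 10 members, antibody culture stood lower than syngeneic culture for 9 genes and higher for Fosl1, with a median difference of −0.30, against 47.2% of all genes lower, 48.5% higher and a median of 0.00 over all genes. Allogeneic culture stood higher than antibody culture for 9 genes and lower for Fosb, with a median of 0.45, against 60.1% of all genes higher, 35% lower and a median of 0.04. In that comparison 0 members lacked overlap (0.269% of all genes higher, 0.055% lower), and 0 had 1 direction in all 3 numbers (4.39% higher, 2.58% lower). Between allogeneic and syngeneic culture 5 members were higher and 5 lower, with a median of 0.06, against 56% of all genes higher, 41.7% lower and a median of 0.03. The medians within numbers 1, 2 and 3 were 0.00, −0.26 and −0.75 for antibody minus syngeneic, 0.00, 0.14 and 1.5 for allogeneic minus antibody, and 0.00, 0.00 and 0.25 for allogeneic minus syngeneic. The antibody array was the lowest of the 3 for 1 member in number 1, for 4 in number 2 and for 8 in number 3, the exceptions there being Fosb and Fosl1. Without the arrays numbered 3 the antibody minus syngeneic median was −0.16 and the allogeneic minus antibody median 0.094, and without the arrays numbered 1 the allogeneic minus antibody median was 0.705. These are descriptions of a list whose members were chosen with earlier results of these data known.

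Markers of other cells also differed in number 3. The summed linear signal of 15 dendritic cell genes other than Batf3 was 32297 on the allogeneic, 14078 on the anti-CD3/CD28 and 30330 on the syngeneic array of that number, and that of 8 granulocyte genes was 1193, 141 and 1325. Over all numbers the dendritic cell sum ran from 7462 to 32297 after allogeneic, from 6065 to 14078 after anti-CD3/CD28 and from 10960 to 30330 after syngeneic culture, with 0 of the 15 genes at or under the median on every array. All 16 dendritic cell genes, Batf3 included, had a lower mean after anti-CD3/CD28 than after syngeneic culture, against 47.2% of all genes. Only 9 of the 16 were lower in all 3 numbers, against 9.15% of all genes. In number 1 the dendritic cell sum was 9913, 8461 and 10960 on the allogeneic, anti-CD3/CD28 and syngeneic arrays. Ccl17 read 9.80 on both the antibody and the syngeneic array of that number. The granulocyte sum ran from 204 to 1193, from 141 to 359 and from 216 to 1325 in the same groups, with Csf3r and Cxcr2 at or under the median on every array. Of the 8 granulocyte genes 4 were higher and 4 lower after anti-CD3/CD28 than after syngeneic culture. S100a8, S100a9, Mpo and Elane were lowest on the antibody array of number 3. Ltf and Csf3r were highest on that array, at 4.21 each, and neither Camp nor Cxcr2 was lowest there. S100a8, S100a9 and Mpo weighed most in the sums of the co-culture arrays of number 3. On the allogeneic, antibody and syngeneic arrays of number 3 the 13 T cell genes summed to 26565, 31713 and 25355. B cell genes (7, with Blnk at or under the median throughout) summed to 3904 to 7802 after allogeneic, 2519 to 6661 after anti-CD3/CD28 and 5792 to 14052 after syngeneic culture. Ighm, the brightest of them on every array, weighed most in these sums. Of the 7 genes 3 were higher and 4 lower after anti-CD3/CD28 than after syngeneic culture. In number 3 Ighm and Blnk were lowest on the antibody array. Cd79a, Cd79b, Ms4a1, Pax5 and Cr2 were highest there, with Ms4a1 at 7.40, 9.32 and 7.40 for allogeneic, anti-CD3/CD28 and syngeneic culture. Stromal genes (7) stood out in number 2, at 2803, 1913 and 8658, and were at 159 or less on the other arrays. The part of these markers in the AP-1 values was not tested.

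**Figure D4:**
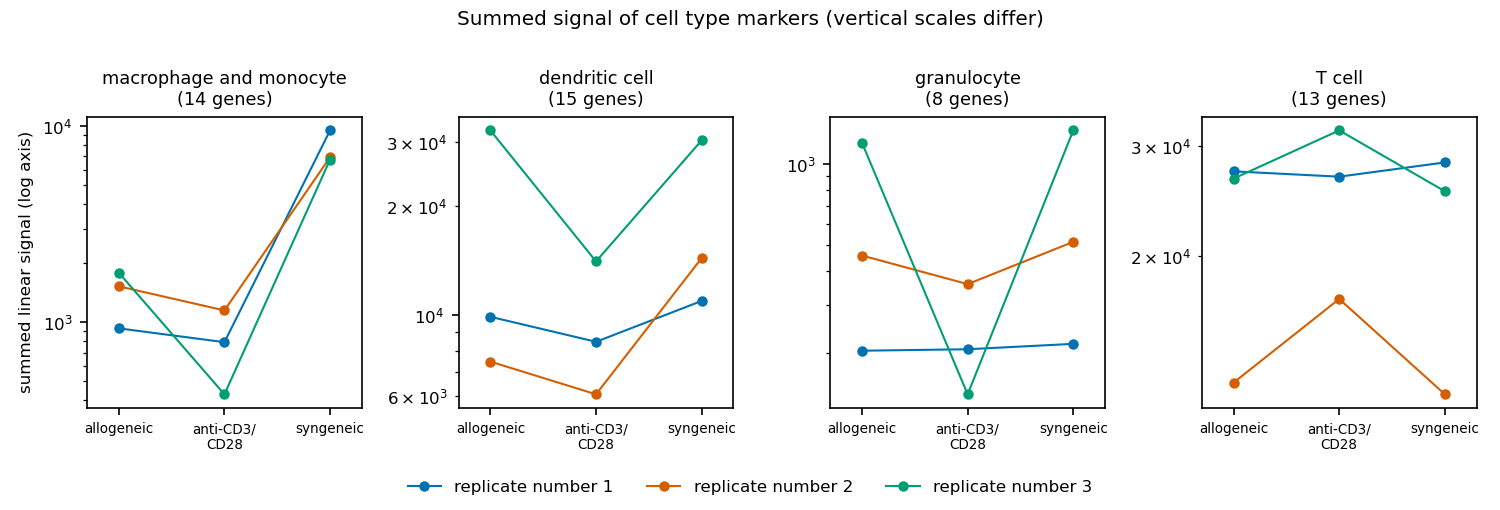
Summed linear signal (log axes, each with its own scale) of markers of 4 cell types in allogeneic, anti-CD3/CD28 and syngeneic cultures, with points for single arrays and lines joining arrays of 1 replicate number. The macrophage and monocyte sum is highest in syngeneic culture in every number. In number 3 the dendritic cell and granulocyte sums are lowest after anti-CD3/CD28, though not every granulocyte gene is.

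Genes around AP-1 were read from lists of partners, upstream kinases and targets, and 0 passed the adjusted test in any comparison. All list counts below stand against 47.2% of all genes lower and 48.5% higher after anti-CD3/CD28 than after syngeneic culture. For allogeneic against syngeneic culture these shares were 41.7% and 56%, and for allogeneic against anti-CD3/CD28 culture 35% and 60.1%. Of 17 measured bZIP partners and rivals, 12 were lower and 5 higher after anti-CD3/CD28 than after syngeneic culture, with a median of −0.21. The smallest unadjusted p among them was that of Cebpb, a bZIP factor of myeloid cells and inflammation, at 6.83, 7.46 and 5.93 after anti-CD3/CD28, against 7.10, 8.95 and 8.29 after syngeneic culture (difference −1.37 ± 0.70). Maf differed by −1.54 ± 0.85, Crem, a cAMP response modulator, by −1.0 ± 0.69, and Jdp2, a Jun dimerisation protein, by −0.98 ± 0.71. Jdp2 and Crem had the shape of Batf3: exactly equal in number 1 and lowest on the antibody array in number 3, where Jdp2 was 6.63, 3.75 and 6.21 for allogeneic, anti-CD3/CD28 and syngeneic culture. In the allogeneic cultures Bach1, a bZIP repressor that pairs with small Maf proteins, differed from syngeneic culture by −1.22 ± 0.75.

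Of the factors that share composite sites with AP-1, 8 of 9 were lower after anti-CD3/CD28 than after syngeneic culture and 1 was higher, with a median of −0.15. The higher one was Irf4, the partner of BATF, at 9.13, 9.37 and 9.71 after anti-CD3/CD28, against 6.52, 9.08 and 9.53 after syngeneic culture. Number 1 made most of its difference of 1.03 ± 0.74, with 2.61 there, 0.30 in number 2 and 0.18 in number 3. In allogeneic culture Irf4 read 9.11, 8.46 and 9.83, a difference of 0.76 ± 0.74 from syngeneic culture. Nfatc2, an NFAT protein that binds beside Fos and Jun, differed by −0.72 ± 0.70 after anti-CD3/CD28 and by −0.41 ± 0.70 after allogeneic culture.

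Of 11 measured kinases that act on AP-1, 8 were lower and 3 higher after anti-CD3/CD28 than after syngeneic culture (median −0.08), and 7 were lower and 4 higher after allogeneic culture (median −0.13). Map3k1, an upstream kinase of the JNK pathway, read 7.95, 8.48 and 8.33 after allogeneic culture, against 8.60, 9.19 and 8.69 after syngeneic culture, without overlap (difference −0.58 ± 0.53), where 0.451% of all genes had none. Of 9 genes for the turnover of AP-1 proteins and transcripts, 5 were lower after allogeneic than after syngeneic culture and 6 after anti-CD3/CD28. They include the ligase gene Itch, which differed by −0.39 ± 0.72 after allogeneic culture, and Zfp36, whose protein destabilises AU-rich transcripts and which differed by −0.47 ± 0.47 after anti-CD3/CD28. Of the 6 measured serum response and ternary complex factors, 5 were lower than after syngeneic culture in both stimulated groups, with medians of −0.10 after allogeneic and −0.26 after anti-CD3/CD28.

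Of 15 measured genes with known AP-1 sites, 8 were higher and 7 lower after allogeneic than after syngeneic culture (median 0.03), 6 were higher and 9 lower after anti-CD3/CD28 (median −0.51), and 13 were higher after allogeneic than after anti-CD3/CD28 (median 0.40, against 0.04 over all genes). Gzmb, the granule protease of killer cells, read 10.88, 10.19 and 11.42 after anti-CD3/CD28, against 6.78, 9.15 and 9.98 after syngeneic culture, without overlap, where 0.412% of all genes had none in that direction. After allogeneic culture Gzmb read 10.86, 10.09 and 11.23, also higher than syngeneic culture without overlap, as were 0.192% of all genes. Il2, the T cell growth factor, read 8.01, 9.47 and 11.54 after allogeneic culture, 8.01, 7.48 and 9.18 after anti-CD3/CD28, and 5.97, 8.60 and 8.22 after syngeneic culture. Csf2, the gene of granulocyte-macrophage colony-stimulating factor, had the shape of Jun in number 3, at 9.14, 5.74 and 9.90 in the same order, and differed between anti-CD3/CD28 and syngeneic culture by −1.58 ± 1.03. None of these passed the adjusted test.

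The genes most like the members over the 9 arrays were found by Pearson correlation after removal of the mean of each replicate number, among genes at or over the 40th percentile of mean signal. For Fosl2 they were Plin2 (r = 0.996), Gab2 (0.995), Rhob (0.993), Lgals3 (0.993) and Pfkfb3 (0.993). Plin2, a lipid droplet protein, read 5.38, 7.46 and 6.23 after anti-CD3/CD28, against 6.37, 8.72 and 8.48 after syngeneic culture. For Jun they were Zcrb1 (r = 0.996), Lztfl1 (0.991), Tm2d2 (0.991), Axl (0.991) and Sccpdh (0.990). Zcrb1, the first by r, read 11.97, 11.07 and 10.45 after anti-CD3/CD28, against 11.92, 11.53 and 11.41 after syngeneic culture. Axl, a receptor tyrosine kinase of macrophages and dendritic cells, was picked out after its values were seen. Axl read 4.90, 5.73 and 5.09 after anti-CD3/CD28, against 5.00, 6.88 and 7.30 after syngeneic culture. For the mean of the 10 members they were Aamdc (r = 0.996), Car2 (0.996), Cd80 (0.994), Tcaf2 (0.992) and Plk2 (0.992). Aamdc, the first by r, read 8.51, 8.28 and 8.65 after allogeneic culture. It read 8.51, 8.08 and 6.89 after anti-CD3/CD28 and 8.74, 8.62 and 8.51 after syngeneic culture. Cd80, a co-stimulatory ligand that is also on the dendritic cell list, was picked out after its values were seen. Cd80 read 5.35, 6.15 and 9.25 after allogeneic culture, 5.35, 5.90 and 5.31 after anti-CD3/CD28, and 5.92, 7.02 and 8.76 after syngeneic culture. These coefficients are descriptions over 9 arrays that share 3 replicate numbers, picked as the highest of 10442 or 10443 genes.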

How the data were processed

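The deposited values are log2 signals per probe set, made by the authors with RMA (robust multi-array average) per the submitters' processing notes, in a version not given in the sources used here. They were used as deposited, for 45101 probe sets and 9 arrays, with 0 value columns left aside. The median log2 signal of an array lay between 4.58 and 5.67 and went with replicate number, and precision is limited by the number of arrays. Left out were 64 controls, 932 probe sets annotated to more than 1 gene and 9160 without annotation. Of the 34945 kept, 34741 had a gene ID found in RefSeq and took the symbol given there, whether or not it differed.

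Cultures were compared by limma 3.58.1 (R 4.3.3) (1 mean per group, all 9 arrays, intensity trend), with Benjamini-Hochberg adjustment over 18193 genes, and the script was tested on simulated data. SEs and 95% intervals are those of that fit, which has no replicate term, so they include the spread between replicate numbers. With the fixed block the SE of a difference was 0.64 for Fosl2, 0.52 for Jun, 0.47 for Fos and 0.091 for Jund. It was 0.27 for Fosl1, 0.12 for Fosb, 0.37 for Junb, 0.46 for Batf, 0.39 for Batf3 and 0.21 for Atf3. Arrays are paired by replicate number: deviations from the group means of same-numbered arrays in different groups correlated at 0.811 to 0.921. The members and gene lists were chosen with earlier results of these data known. All 10 members are named, with up to 4 genes of each other list by smallest p in a comparison, and the 5 genes most like Fosl2, Jun and the mean of the members, predicted genes left out. A few further single values (marker genes named as checks, and Cd80, Axl, Plin2, Csf2 and Jdp2 values) were picked out after they were seen. Gene members not measured in the table used here were not analysed. Alternatives were the fixed and random replicate block, quantile normalization, median centring, a filter on genes under the 40th percentile of mean signal, the mean of probe sets, no trend, only 2 groups, and leaving out each array. Leaving out all arrays of 1 number was added after seeing the data.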

Additional observations from a re-analysis of the deposited data

How the results depend on the processing

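The fixed replicate block changed no call: 0 genes passed in each comparison, with adjusted p = 0.727 for Fosl2, 0.729 for Jun and 0.729 for Fos between anti-CD3/CD28 and syngeneic culture. The unadjusted limma p of these 3 genes with the block was 0.0182, 0.0561 and 0.0601. With the number as a random block 1 gene passed between allogeneic and syngeneic culture and 30 between anti-CD3/CD28 and syngeneic culture, and with arrays centred on their medians 1 passed between anti-CD3/CD28 and syngeneic culture. None was a member, and Fosl2 came nearest at adjusted p = 0.0999. No member passed under any alternative. Fosl2, Fos, Jun and Jund kept the lower antibody signal against syngeneic culture, and Fosl1 its higher stimulated signal against it, in each alternative and each fit without 1 array. The member median between allogeneic and syngeneic culture ran from −0.38 to 0.54 when 1 array was left out. Without the arrays numbered 3 some differences changed sign: allogeneic minus syngeneic to 0.091 for Jun and −0.11 for Junb, antibody minus syngeneic to 0.0041 for Batf and 0.0079 for Atf3, and allogeneic minus antibody to −0.16 for Fos, 0.086 for Fosb and −0.10 for Fosl2. Without the arrays numbered 2 antibody minus syngeneic was 0.012 for Fosb, and with the mean of probe sets allogeneic minus syngeneic was 0.028 for Jund. In fits without 1 array, ranges that crossed 0 for allogeneic minus syngeneic were −1.73 to 0.040 (Fos), −0.49 to 0.054 (Fosb), −0.72 to 0.48 (Jun), −0.49 to 0.76 (Junb), −0.15 to 0.019 (Jund), −0.58 to 1.01 (Batf), −0.084 to 1.19 (Batf3) and −0.29 to 0.67 (Atf3). For antibody minus syngeneic they were −0.42 to 0.073 (Fosb), −0.49 to 0.11 (Junb), −1.05 to 0.19 (Batf), −0.87 to 0.0075 (Batf3) and −0.49 to 0.17 (Atf3). For allogeneic minus antibody they were −0.24 to 1.06 (Fos), −0.35 to 0.23 (Fosb), −0.31 to 0.40 (Fosl1), −0.22 to 1.02 (Junb), −0.072 to 1.39 (Batf) and −0.16 to 0.79 (Atf3). The causes were not tested. Fosb was dropped by the filter on dim genes and has no value there.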
